A study of Mus musculus with 8 samples.

Results

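The guanylate-binding proteins are a family of interferon-inducible GTPases, and their genes were followed here in mouse T cells driven towards the regulatory phenotype. The members were taken by name, Gbp2 to Gbp11, which makes 10 genes. Of these, 7 had a row among the 28239 gene symbols of the count table, 6 passed the filter on low counts, and Gbp4, Gbp6 and Gbp10 were not analysed here as genes of their own. MACE-seq, which sequences fragments from the 3′ ends of transcripts, had been applied to 8 libraries to ask how the absence of Alox15, the 12/15-lipoxygenase that oxygenates polyunsaturated fatty acids, alters regulatory T cells (Tregs).

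Of the 8 libraries, 4 carried the label WT and 4 the label Alox15-/-, and the labels give C57BL/6 as the strain of both. In both groups naïve CD4+ T cells were obtained from spleen by negative selection and were kept for 2 days with 100 U/ml IL-2, 5 ng/ml TGF-β and beads carrying antibodies to CD3 and CD28. Mice were 10 to 12 weeks old. The series describes 4 mice of each genotype but does not say whether each library came from the culture of a single mouse, and the p-values below measure only the spread between these libraries. Wild-type mice came from Charles River and Alox15-/- mice from The Jackson Laboratory, so supplier and genotype cannot be told apart.

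Library totals ran from 3723151 to 9538962 counts. The markers of CD4+ T cells and Tregs were present in every library, with summed levels of 2899 to 3068 CPM (counts scaled to a library total of 1000000) in the libraries labelled Alox15-/- and 2916 to 3180 CPM in WT. Of these, Cd4 stood at 297, 210, 278 and 289.8 CPM in the libraries labelled Alox15-/- and at 329, 334, 328 and 352 CPM in WT, lower in all 4 (log2 fold change -0.32, edgeR adjusted p = 0.357). Cd3g, a chain of the T cell receptor complex, stood at 152, 162, 161 and 169.8 CPM and at 138, 139.7, 132 and 111 CPM, higher in all 4 (log2 fold change 0.31, edgeR adjusted p = 0.296). Cd3d, Cd3e and Ctla4 also had log2 fold changes above 0 and the other 6 had values below 0, with edgeR adjusted p of 0.296 to 0.949 over the list. Alox15 itself went against the labels. It stood at 70.5, 69.2, 63.7 and 65.3 CPM in the 4 libraries labelled Alox15-/- and at 1.88, 2.56, 7.77 and 9.02 CPM in the 4 WT libraries, a log2 fold change of 3.65 (SE 0.30, edgeR adjusted p = 1.08e-05). The sources used here do not say which part of Alox15 the allele alters, and a 3′ tag outside that part checks nothing. Foxp3, the defining factor of Tregs, stood at 71.7, 95.5, 93.0 and 114 CPM in the libraries labelled Alox15-/- and at 109, 102, 195 and 93.4 CPM in WT, with overlapping groups, and did not pass the test (log2 fold change -0.42, 95% interval -0.86 to 0.01, edgeR adjusted p = 0.655). Each direction given below follows the labels.

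Guanylate-binding proteins are large GTPases that cells make in response to interferons, above all interferon-γ. They assemble on the membranes of vacuoles and on the surfaces of bacteria in the cytosol, where they help to expose microbes to other defences and to the inflammasome. Interferons drive their transcription through the GAS element and, by way of interferon regulatory factors, through the interferon-stimulated response element (ISRE).

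The mouse genes lie in 2 clusters. In GRCm38 with the GENCODE annotation, Gbp5 (chr3:142493978-142522344), Gbp7 (chr3:142530342-142550149), Gbp3 (chr3:142560026-142573209) and Gbp2 (chr3:142620602-142638008) follow each other on the plus strand of chromosome 3. Gbp8 (chr5:105014150-105139540), Gbp9 (chr5:105077630-105139539) and Gbp11 (chr5:105323042-105346472) lie on the minus strand of chromosome 5. Gbp8 and Gbp9 overlap each other there, and both overlap Gbp4. Gbp11 is annotated as a polymorphic pseudogene. Alox15 lies on chromosome 11, away from both clusters.

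Upstream sequence from RefSeq (GRCm38.p6) matched the 4 members on chromosome 3. It is shown because these 4 neighbours share a known route of induction and yet include both members that passed the test and the 1 that did not. Each line gives the 250 bases before the RefSeq start, which for Gbp5, Gbp3 and Gbp2 lies inside the GENCODE gene, plus strand, 5′ to 3′, with matches to the ISRE core (GAAANNGAAA) and to the GAS element (TTCNNNGAA), searched on both strands, in capitals.
Gbp2, chr3:142620413-142620662: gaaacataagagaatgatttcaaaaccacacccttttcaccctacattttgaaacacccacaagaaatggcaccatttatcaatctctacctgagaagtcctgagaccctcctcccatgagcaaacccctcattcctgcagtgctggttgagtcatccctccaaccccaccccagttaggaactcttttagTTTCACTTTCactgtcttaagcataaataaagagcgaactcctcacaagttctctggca
Gbp5, chr3:142496684-142496933: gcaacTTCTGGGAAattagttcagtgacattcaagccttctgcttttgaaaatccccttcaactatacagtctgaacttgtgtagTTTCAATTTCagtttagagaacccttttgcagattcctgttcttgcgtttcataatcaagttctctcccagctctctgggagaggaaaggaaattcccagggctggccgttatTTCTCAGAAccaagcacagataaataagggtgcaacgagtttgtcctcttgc
Gbp7, chr3:142530086-142530335: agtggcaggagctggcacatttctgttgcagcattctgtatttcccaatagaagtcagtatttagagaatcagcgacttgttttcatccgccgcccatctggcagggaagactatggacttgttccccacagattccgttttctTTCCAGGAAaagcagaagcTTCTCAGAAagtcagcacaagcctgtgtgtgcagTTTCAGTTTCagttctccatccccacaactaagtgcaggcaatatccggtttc
Gbp3, chr3:142559794-142560043: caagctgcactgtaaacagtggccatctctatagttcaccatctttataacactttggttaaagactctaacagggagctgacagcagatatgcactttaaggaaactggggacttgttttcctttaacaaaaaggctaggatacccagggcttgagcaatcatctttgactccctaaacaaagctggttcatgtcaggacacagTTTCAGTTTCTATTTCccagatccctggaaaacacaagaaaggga

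All 4 windows held an ISRE core. The match ended 50 bases before the start in Gbp2, 44 bases in Gbp7 and 156 bases in Gbp5, and Gbp3 had a pair of overlapping matches at 36 and 30 bases. Gbp5 and Gbp7 also held 2 GAS elements each, at 237 and 44 bases in Gbp5 and at 98 and 79 bases in Gbp7, none of which overlapped the ISRE core. A window of a second Gbp3 start (chr3:142560106-142560355) held neither motif. Across all 32851 windows of the same length, 978 held the ISRE core (2.98%), 2306 the GAS element (7.02%) and 109 both (0.332%). These matches describe the letters only.

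In the libraries labelled Alox15-/-, 5 of the 6 tested members were higher than in WT (Gbp2, Gbp5, Gbp7, Gbp8 and Gbp9), by 1.75- to 2.34-fold, and the remaining member, Gbp3, did not pass the test. The 6 log2 fold changes were all above 0, with a median of 0.89 and a range of 0.45 to 1.22. Over all 12700 genes tested the median was -0.0075, and 48.2% were above 0. By edgeR's quasi-likelihood test at an adjusted p under 0.05, 1.24% of all genes passed in either direction and 1.05% passed as higher where the label was Alox15-/-. In 4 of the 6 tested members (Gbp2, Gbp5, Gbp8 and Gbp9) all 4 libraries labelled Alox15-/- lay above all 4 WT libraries, which held for 2.74% of all genes. In bulk samples, more cells of a type and more RNA per cell cannot be told apart.

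**Figure D1:**
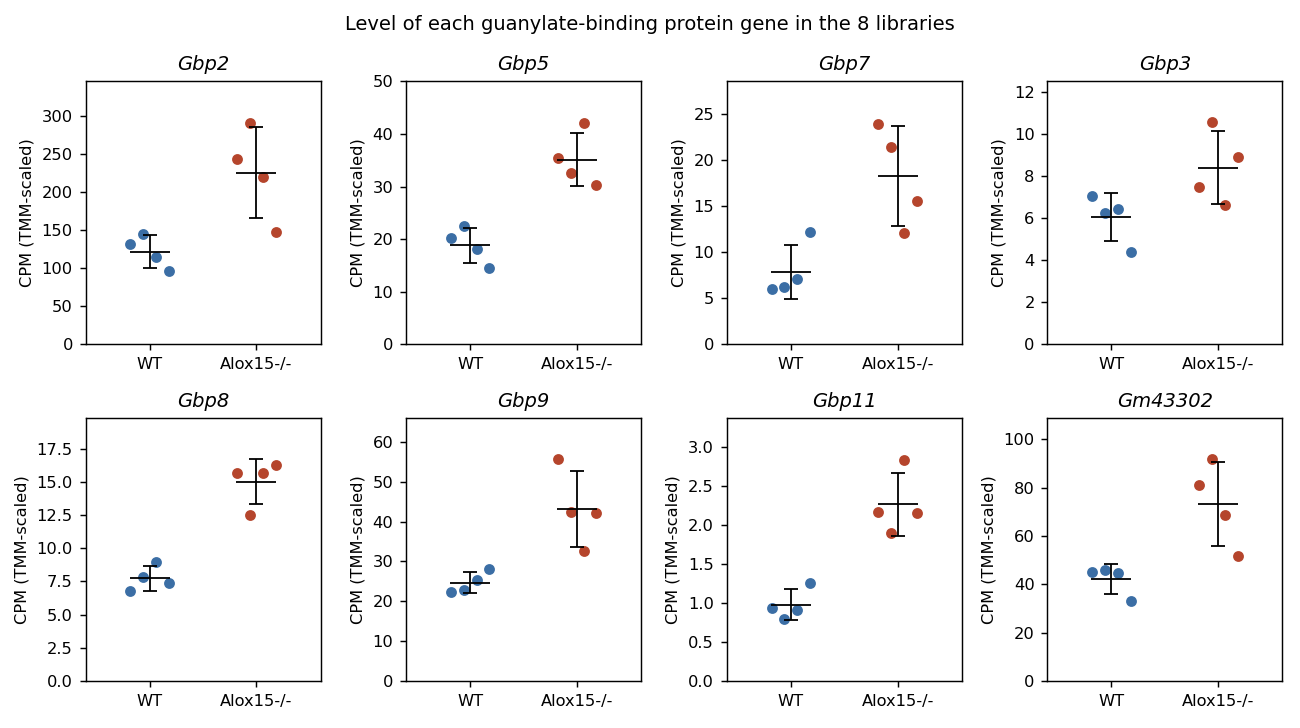
Level of each member with a row and of Gm43302, in CPM after TMM scaling (vertical axes, each from 0), with 1 point per library, blue for WT and red for the libraries labelled Alox15-/-, and black bars for the mean and SD of 4 libraries. The groups overlap in Gbp7 and Gbp3 and are apart in the other 6 genes.

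Gbp2, which binds the vacuoles of intracellular pathogens such as Toxoplasma, was measured most deeply. It stood at 243, 291, 219 and 148 CPM in the 4 libraries labelled Alox15-/- and at 132, 145, 114 and 95.5 CPM in the 4 WT libraries. The groups did not overlap, although the lowest library labelled Alox15-/- (replicate 4) lay just above the highest WT library (replicate 2). The means were 225 ± 59.6 and 122 ± 21.5 CPM (SD, n = 4), a 1.84-fold difference (95% interval 1.42 to 2.39; log2 0.88, SE 0.18, edgeR adjusted p = 0.0171). Gbp2 lost the call when replicate 1, 2 or 3 labelled Alox15-/- or WT replicate 1 was left out, with edgeR adjusted p from 0.0536 to 0.0775, and in edgeR's robust fit (adjusted p = 0.0739).

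Gbp5, which has been linked to the NLRP3 inflammasome, kept its call in every fit that left out 1 library. The libraries labelled Alox15-/- held 35.5, 32.6, 42.2 and 30.4 CPM and the WT libraries 20.2, 22.4, 18.1 and 14.5 CPM. Every library labelled Alox15-/- was above every WT library. The log2 fold change was 0.90 (SE 0.16, 95% interval 0.56 to 1.23, edgeR adjusted p = 0.00614), and it lay between 0.80 and 0.99 with 1 library left out.

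Gbp7, which has been linked to assembly of the phagocyte NADPH oxidase, had the highest fold change of the 6 tested members. It stood at 23.9, 21.4, 12.1 and 15.5 CPM in the libraries labelled Alox15-/- and at 5.96, 6.25, 7.06 and 12.2 CPM in WT. The groups met at their edges, since replicate 3 labelled Alox15-/- lay just under WT replicate 4. The log2 fold change was 1.22 (SE 0.26, 95% interval 0.68 to 1.77, edgeR adjusted p = 0.0239). The call was lost without replicate 1 or 2 labelled Alox15-/- or without WT replicate 1, 2 or 3, with edgeR adjusted p from 0.074 to 0.116, and without WT replicate 4 the log2 fold change was 1.48.

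Gbp3 was the member on chromosome 3 that did not pass. The libraries labelled Alox15-/- held 7.48, 10.6, 6.62 and 8.92 CPM and the WT libraries 7.06, 6.25, 6.46 and 4.41 CPM. Of the libraries labelled Alox15-/-, 3 lay above the highest WT library and replicate 3 lay below it. The log2 fold change was 0.45 with a 95% interval of -0.02 to 0.93 (SE 0.22, edgeR adjusted p = 0.669), so these data neither show a difference nor limit it to less than that of Gbp2 or Gbp5.

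Gbp8, on chromosome 5, also kept its call in every fit that left out 1 library. It stood at 15.7, 12.5, 15.7 and 16.3 CPM in the libraries labelled Alox15-/- and at 6.74, 7.85, 8.98 and 7.35 CPM in WT, with no overlap. The log2 fold change was 0.95 (SE 0.17, 95% interval 0.59 to 1.32, edgeR adjusted p = 0.00756), and it lay between 0.89 and 1.05 with 1 library left out. Its last 500 transcript bases matched those of Gbp9 at 89.5% identity, and how reads that fit several genes were counted is not given in the sources used here.

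Gbp9 stood at 55.8, 42.3, 32.5 and 42.2 CPM in the libraries labelled Alox15-/- and at 22.4, 22.7, 25.2 and 28.1 CPM in WT. The groups did not overlap, and replicate 1 labelled Alox15-/- was well above the other 3. The log2 fold change was 0.81 (SE 0.16, 95% interval 0.48 to 1.14, edgeR adjusted p = 0.0144). It lost the call without that library or without WT replicate 1 or 2, with edgeR adjusted p from 0.0576 to 0.0731.

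Gbp11 fell under the filter of 2 CPM in at least 4 libraries. It was counted 9, 7, 15 and 15 times in the libraries labelled Alox15-/-, or 2.17, 1.90, 2.84 and 2.16 CPM, and 6, 5, 9 and 6 times in WT, or 0.941, 0.801, 0.908 and 1.26 CPM. The groups did not overlap, and the mean of 2.27 ± 0.40 CPM was above that of 0.977 ± 0.20 CPM (SD, n = 4). An exact permutation test, two-sided, gave p = 0.0286, which is as small as 4 against 4 can give. In an edgeR fit with no filter, where it was tested with all other genes, the adjusted p was 0.354 (log2 fold change 1.21). The counts are few, and its last 500 bases matched those of Gbp6 at 88.3% identity, Gbp8 at 88.2%, the gene model Gm43302 at 87.9%, Gbp9 at 86.6% and Gbp4 at 86.5%.

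The gene model Gm43302 (chr5:105214907-105293695, minus strand), which spans both Gbp10 and Gbp6, had a row of its own and was added after its values were seen. Its last 500 bases were identical to those of annotated Gbp6 and Gbp10 transcripts, so tags of these genes cannot be told apart there. Gm43302 stood at 81.1, 91.7, 68.5 and 51.5 CPM in the libraries labelled Alox15-/- and at 45.0, 45.8, 44.8 and 33.0 CPM in WT. The groups did not overlap (log2 fold change 0.78, SE 0.16, edgeR adjusted p = 0.0238). Without replicate 1, 2 or 3 labelled Alox15-/- or WT replicate 1 or 2, the edgeR adjusted p was 0.0614 to 0.108.

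**Figure D2:**
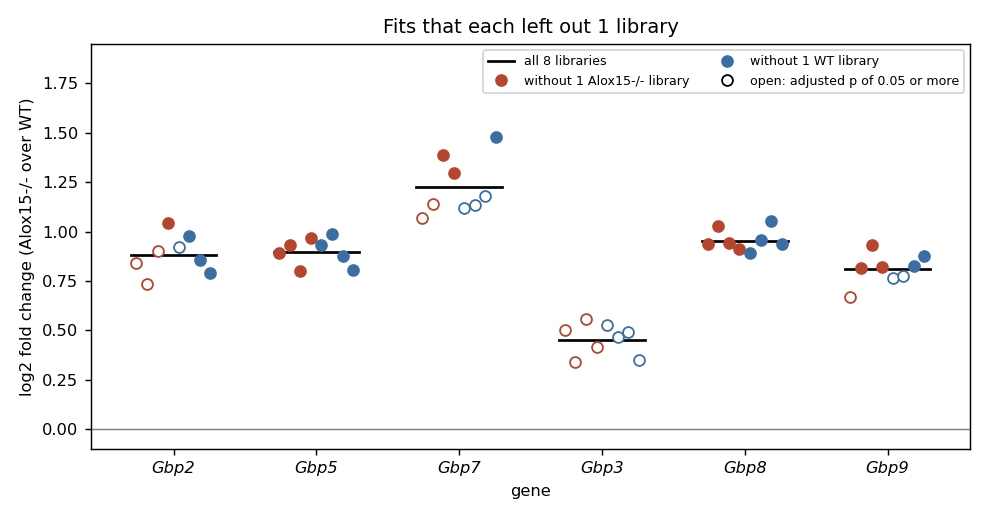
Log2 fold change (vertical axis, libraries labelled Alox15-/- over WT) of the 6 tested members with all 8 libraries (black line) and in 8 fits that each left out 1 library (points, red where it was labelled Alox15-/- and blue where WT), filled where the adjusted p was under 0.05. Every point lies above 0, and all 8 are filled for Gbp5 and Gbp8 and none for Gbp3.

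The levels of the members relative to the WT mean varied between the libraries labelled Alox15-/-, which is a description with no test. Gbp3, which did not pass, is included in it. Averaged over the 6 tested members, the level above the WT mean was 1.03 on the log2 scale in replicate 1, 0.99 in replicate 2, 0.72 in replicate 3 and 0.75 in replicate 4. No library led throughout: Gbp7 and Gbp9 were highest in replicate 1, Gbp2 and Gbp3 in replicate 2, Gbp5 in replicate 3 and Gbp8 in replicate 4. Replicate 4 had the smallest rise in Gbp2, at 0.29, but the largest in Gbp8, at 1.08.

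**Figure D3:**
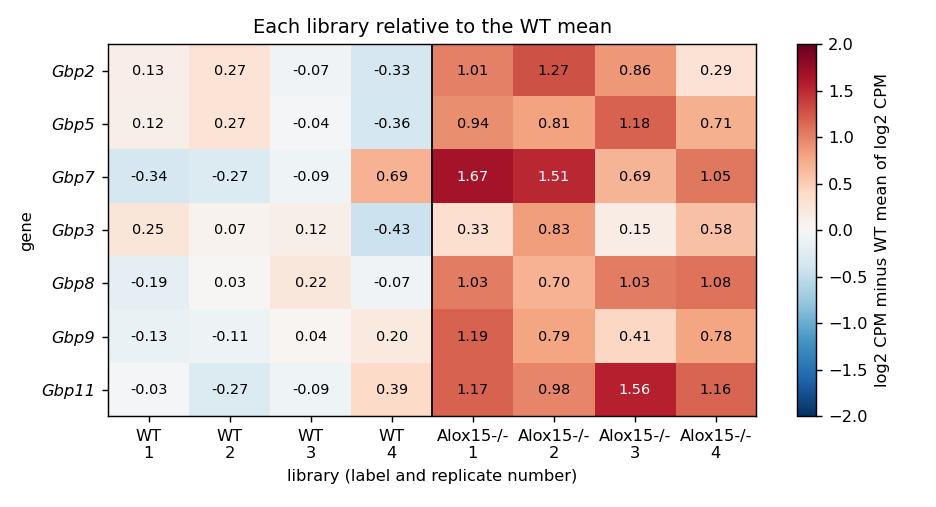
Log2 CPM of each member with a row (rows) in each library (columns, by label and replicate number) minus the mean of the 4 WT libraries, in colour from blue (below) to red (above) and as numbers. All 28 cells of the libraries labelled Alox15-/- are above 0, from 0.15 for Gbp3 in replicate 3 to 1.67 for Gbp7 in replicate 1, and WT replicate 4 stands out for Gbp7 at 0.69.

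Because each transcript yields a tag from its 3′ end, CPM were summed over the 7 members without division by length. The sum was 263 to 412 CPM in the libraries labelled Alox15-/- and 163 to 211 CPM in WT. Gbp2 made up 56.1 to 70.6% and 58.5 to 68.6% of it, ranges that overlapped. Without Gbp2 the sum was 112 to 141 CPM against 63.3 to 67.8 CPM, so the groups were apart with and without the most abundant member.

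Some markers of other cell types also differed between the labels. Of the tested markers, 5 of 5 erythroid, 7 of 9 myeloid, 6 of 7 mast cell and basophil, 6 of 9 NK and γδ T cell and 2 of 2 eosinophil genes passed edgeR's test as higher. Of 6 eosinophil genes with a row, 4 fell under the filter, and 1 of these, Ccr3, had a log2 fold change of -3.76 in the edgeR fit with no filter (adjusted p = 3.79e-04). That fit passed 388 genes against 158 with the filter, so its adjusted p does not compare with those of the main fit. The B cell marker Ms4a1 passed as lower (log2 fold change -2.64, edgeR adjusted p = 0.00413). Their summed levels were 907 to 3486 against 33.7 to 123 CPM for erythroid, 61.6 to 388 against 19.2 to 28.4 CPM for myeloid, 137 to 341 against 59.0 to 83.3 CPM for mast cell and basophil, 101 to 211 against 39.7 to 61.4 CPM for NK and γδ T cell, and 20.1 to 70.3 against 1.25 to 10.3 CPM for eosinophil markers. The dendritic cell sums were 3.31 to 6.79 and 2.93 to 4.49 CPM, the B cell sums 5.55 to 8.14 and 8.31 to 21.2 CPM, the CD8 T cell sums 12.1 to 21.9 and 21.5 to 31.8 CPM and the stromal and endothelial sums 30.6 to 40.6 and 25.2 to 30.4 CPM. No listed marker with a row was at 0 in all libraries, while Siglecf, Il5ra, Ear2, Cd209a and Col3a1 were at 0 in most of them. Among the libraries labelled Alox15-/-, replicate 2 had the highest myeloid and NK and γδ sums (388 and 211 CPM) and replicate 4 the lowest (61.6 and 101 CPM), with 104.5 and 166 CPM in replicate 1 and 236 and 172 CPM in replicate 3. Gbp2 and Gm43302 were likewise highest in replicate 2 and lowest in replicate 4, while Gbp8 was lowest in replicate 2 and highest in replicate 4. Gbp3 was highest in replicate 2 and lowest in replicate 3, Gbp5 was highest in replicate 3 and lowest in replicate 4, and Gbp7 and Gbp9 were highest in replicate 1 and lowest in replicate 3. Among the WT libraries, Gbp2 and Gm43302 were also highest in replicate 2 and lowest in replicate 4. There the myeloid sums in replicates 1 to 4 were 25.1, 28.4, 19.2 and 26.4 CPM. The NK and γδ sums were 60.8, 39.7, 61.4 and 57.3 CPM. With replicate 1, 2, 3 or 4 labelled Alox15-/- left out, 2, 3, 4 and 5 members passed the test, and with WT replicate 1, 2, 3 or 4 left out, 2, 3, 4 and 5 did. The part of these cells in the members' levels was not tested.

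Outside the members, 4 of 11 tested interferon-inducible GTPases were higher in the libraries labelled Alox15-/-. Of 21 listed, 11 were tested, all 11 log2 fold changes were above 0 with a median of 0.58, and 4 passed edgeR's test, all higher. The very large GTPases Gm4070 (31.3 ± 7.44 against 9.45 ± 1.45 CPM, SD, n = 4) and Gvin1 (29.3 ± 7.81 against 9.99 ± 2.04 CPM) rose by 1.72 and 1.52 on the log2 scale (edgeR adjusted p = 1.16e-04 and 8.34e-04). Their last 500 bases were identical to each other, so they do not count as separate measurements.

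The other 2 belong to the immunity-related GTPases, which act with the guanylate-binding proteins at pathogen vacuoles. Irgm2, a regulator of the family, had a log2 fold change of 1.06 (39.5 ± 5.81 against 18.7 ± 3.04 CPM, edgeR adjusted p = 0.0012), and its annotation overlaps Igtp on the same strand. Tgtp2, an effector of the family, had one of 0.58 (120 ± 12.4 against 80.4 ± 7.37 CPM, edgeR adjusted p = 0.0122), and its last 500 bases were identical to those of Tgtp1. Tgtp2 lost the call without replicate 1 or 2 labelled Alox15-/- (edgeR adjusted p = 0.0567 and 0.0622). Both lie on chromosome 11, as Alox15 does, at 12.1 and 21.3 Mb from it. So do Igtp, Irgm1, Ifi47, Gm12185 and 9930111J21Rik2, at 12.1 to 21.5 Mb, and none of these passed edgeR's quasi-likelihood test.

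Of the 7 that did not pass, Gm4951 had a log2 fold change of 1.40 (edgeR adjusted p = 0.0529) and Iigp1, an effector of the family, one of 1.08 (edgeR adjusted p = 0.204). Gm4951 passed with upper quartile scaling, with no filter, in edgeR's exact test and robust fit, in DESeq2 and without replicate 4 labelled Alox15-/-, and Iigp1 with no filter, in the exact test and without that library. Igtp had one of 0.44, 9930111J21Rik2 0.39, Irgm1 0.38, Gm12185 0.20 and Ifi47 0.11. The tested GTPases thus ranged from values above those of any tested member to values near 0.

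**Figure D4:**
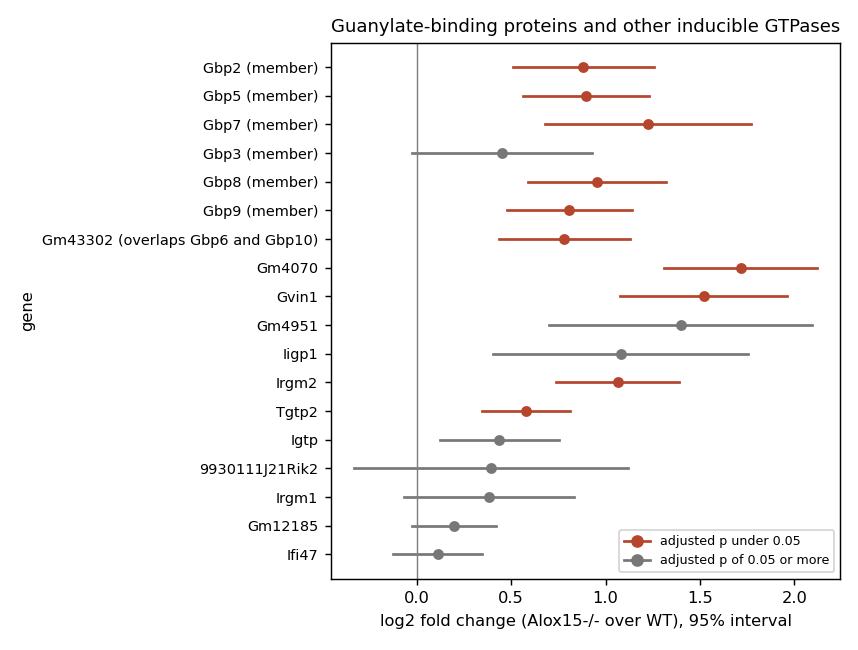
Log2 fold change (horizontal axis, libraries labelled Alox15-/- over WT) with its 95% interval for the 6 tested members, Gm43302 and 11 other interferon-inducible GTPases, red where the adjusted p was under 0.05. All 18 points lie above 0, from 0.11 for Ifi47 to 1.72 for Gm4070.

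The interferon signal that reaches these promoters was read at its ligands, receptors, kinases, factors and inhibitors. Of 23 listed genes 22 were tested, 16 had log2 fold changes above 0 with a median of 0.16, and 2 passed edgeR's test, both higher. Ifng, the ligand interferon-γ, stood at 21.7, 10.6, 9.46 and 5.18 CPM in the libraries labelled Alox15-/- and at 4.55, 6.57, 2.02 and 7.77 CPM in WT. These groups overlapped, and its log2 fold change of 1.20 (SE 0.42) did not pass (edgeR adjusted p = 0.385). The receptor subunit Ifngr1 had a log2 fold change of 0.38 and the kinase Jak1 one of -0.03, and neither passed.

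Irf1, which binds the ISRE, had a log2 fold change of 0.35 (edgeR adjusted p = 0.635), Irf8 one of -0.11 and Irf9 one of -0.04.

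The 2 genes that passed are better known as targets of type I interferon. Irf7, a factor that amplifies type I interferon production, stood at 12.3, 13.0, 9.83 and 8.92 CPM in the libraries labelled Alox15-/- and at 3.29, 2.88, 6.15 and 5.67 CPM in WT, with no overlap (log2 fold change 1.26, SE 0.26, edgeR adjusted p = 0.0226). Usp18, which damps signalling from the type I receptor, stood at 10.1, 26.9, 16.8 and 10.7 CPM and at 5.17, 6.89, 5.75 and 5.88 CPM, again apart (log2 fold change 1.42, SE 0.28, edgeR adjusted p = 0.0166). Irf7 lost the call without replicate 1, 2 or 3 labelled Alox15-/- or WT replicate 1 or 2, with edgeR adjusted p from 0.061 to 0.103. The replicate block also ended the call of Irf7. Usp18 lost it without replicate 3 labelled Alox15-/- or WT replicate 1 (edgeR adjusted p = 0.0733 and 0.0796). Socs3, an inhibitor, had a log2 fold change of 0.78 and did not pass (edgeR adjusted p = 0.142). It passed with no filter, in edgeR's exact test, in DESeq2 and without WT replicate 3, and Ifng passed with no filter.

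**Figure D5:**
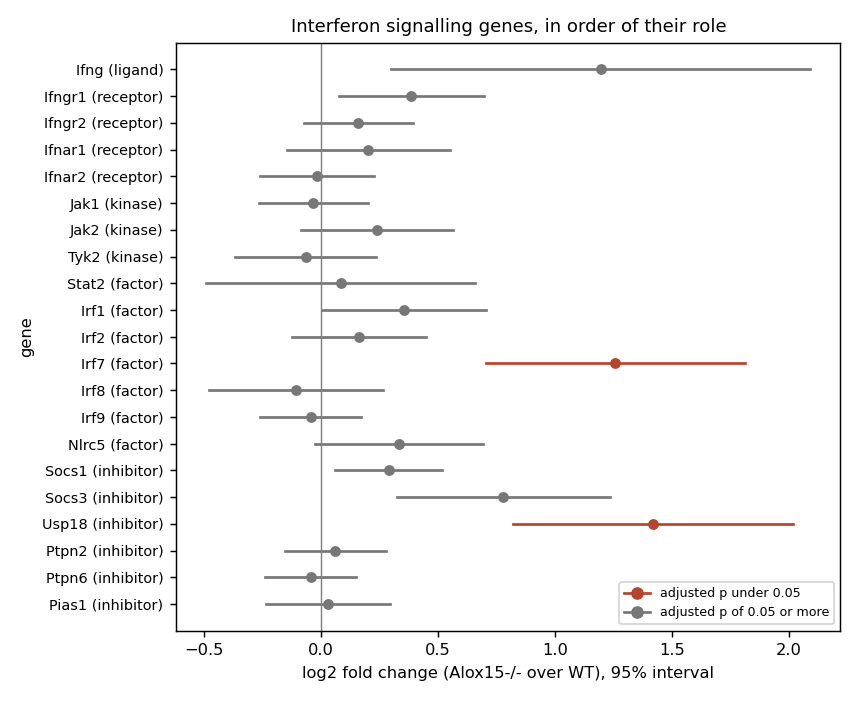
Log2 fold change (horizontal axis, libraries labelled Alox15-/- over WT) with its 95% interval for tested genes of interferon signalling, ordered by role from ligand to inhibitor, red where the adjusted p was under 0.05. Irf7 and Usp18 are the only red points, and Ifng has a wide interval.

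Guanylate-binding proteins help to expose bacterial products to caspases and to the DNA sensor AIM2. Of 15 listed inflammasome and cell death partners, 8 were tested, 7 of them with log2 fold changes above 0 (median 0.23). None passed edgeR's quasi-likelihood test, 3 had an unadjusted p under 0.05, and DESeq2 and edgeR's exact test each called 1, Casp4. The log2 fold changes were 0.82 for Casp4, the sensor of cytosolic lipopolysaccharide (edgeR adjusted p = 0.102), 1.01 for Casp1, which cleaves interleukin-1β (edgeR adjusted p = 0.317), and 0.58 for Zbp1, a nucleic acid sensor (edgeR adjusted p = 0.24). They were 0.35 for Gsdmd, the pore-forming protein, 0.12 for Nlrc4, 0.08 for Pycard, 0.03 for Aim2 and -0.07 for Ripk3.

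The ATG8 conjugation machinery directs these GTPases to their membranes, and prenylation anchors some of them there. All 16 listed genes were tested, 9 had log2 fold changes above 0 and the median was 0.03. None passed edgeR's quasi-likelihood test, DESeq2 or limma-voom, and 1 had an unadjusted p under 0.05. That gene, Icmt, which methylates the prenylated end, had a log2 fold change of -0.32 (edgeR adjusted p = 0.632).

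The genes whose pattern was nearest to the mean pattern of the 6 tested members were found from log2(CPM + 1), centred over the 8 libraries, by the root mean square difference. Among genes outside the members these were Gimap4 (0.0734), Slfn1 (0.112), Tgtp2 (0.142), Myo1f (0.145) and Dpp4 (0.149), against a median of 0.47 over all other genes tested. Since they were chosen for following a pattern that holds the difference between the labels, their own differences are a description with no test. Gimap4, a GTPase of lymphocytes, stood at 106 ± 6.65 against 57.9 ± 4.997 CPM (SD, n = 4; log2 fold change 0.87), and Dpp4, a peptidase of the T cell surface, at 16.0 ± 1.803 against 8.46 ± 1.43 CPM (log2 fold change 0.89). The log2 fold change was 0.70 for Slfn1 and 0.92 for Myo1f.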

How the data were processed

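The authors deposited a table of raw counts per gene symbol for 4 WT and 4 Alox15-/- MACE-seq libraries (4 of 4 in each group used). The submitters' processing notes name Bowtie, edgeR and GRCm38 without roles, and the counting tool, its handling of strand and multiply mapped reads, and removal of PCR duplicates are not given in the sources used here. The labels name a small RNA kit and the study's methods a MACE-seq kit. CPM and log2 values were computed here from the counts. No column was left without a sample.

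Counts were scaled by TMM and tested with edgeR 4.0.16 (glmQLFit and glmQLFTest, group as the only term, R 4.3.3), keeping the 12700 genes that reached 2 CPM in 4 or more libraries, with Benjamini-Hochberg adjustment over all of them and a threshold of 0.05. The member under the filter had a two-sided exact permutation test (scipy 1.17.1). The biological coefficient of variation was 14.5%. Totals of 3723151 to 9538962 counts set the precision.

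The members, the 4 pathway lists and the marker lists were chosen with earlier results of these data known. Genes named were the members, Alox15, the called genes and other measured genes of the pathway lists (1 gene of the interferon signalling list is counted with its list but not reported here), the 5 genes nearest in pattern, and markers. Gene positions and transcript ends (last 500 bases, blastn 2.17.0) came from GENCODE M21. Alternatives were other scalings (DESeq2 1.42.0 size factors, upper quartile, totals without hemoglobin genes), other filters, edgeR's exact test and robust fit, DESeq2, limma-voom (limma 3.58.1), a replicate block and each library left out in turn. The row of Gm43302 was added after the data were seen. The table also holds 26 symbols in the form of dates, which touch none of the genes named.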

Additional observations from a re-analysis of the deposited data

Results flagged for a closer look

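In 18 groups of 4 libraries (the members with a row, Alox15 and Gm43302), Dixon's test at 95% marked 2 libraries, where chance marks about 1 in 20 groups. Gbp8 in replicate 2 labelled Alox15-/- stood at 12.48 CPM, below the other 3 at 15.7 to 16.3 CPM, and it was still above every WT library. Gm43302 in WT replicate 4 stood at 32.95 CPM, below the other 3 at 44.8 to 45.8 CPM.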

How the results depend on the processing

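The count of 5 members past the threshold stayed at 5 under the other scalings, filters and tests except edgeR's robust fit, which left 4, and it ran from 2 to 5 when 1 library was left out. It was 2 without replicate 1 labelled Alox15-/- or WT replicate 1, and 3 without replicate 2 of either label. Other GTPases past the threshold numbered 4, 7 with no filter on low counts, and 3 to 6 with 1 library left out. They numbered 6 by edgeR's exact test and 5 with upper quartile scaling, in the robust fit and by DESeq2. Interferon signalling genes numbered 2, 4 with no filter, 3 by edgeR's exact test and by DESeq2, and 0 to 3 with 1 library left out. Inflammasome partners numbered 0, 3 with no filter, 1 by edgeR's exact test and by DESeq2, and 0 to 1 with 1 library left out, and ATG8 and prenylation genes 0 throughout. The cause of these moves was not tested. Over all genes 158 passed, 388 with no filter and 86 to 172 with 1 library left out.

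The study's methods name no pairing by replicate number, and correlations over all genes cannot settle whether there was one. Same-numbered libraries had correlations of deviations of 0.07, 0.16, -0.17 and -0.02, and not every library correlated best with its own number. From high to low, Gbp2 and Gm43302 ran in the order of replicates 2, 1, 3 and 4 in both groups. The other members with a row did not keep 1 order in both. With the replicate block 5 members passed, 6 other GTPases (Gm4951 and Iigp1 added), 1 interferon signalling gene (Usp18) and 146 genes in all. The block lowered the edgeR adjusted p of Gbp2 to 7.22e-04 and that of Gm43302 to 0.00316. It raised those of Gbp5 (0.00667), Gbp7 (0.0432), Gbp8 (0.0234) and Gbp9 (0.0297). Alox15 stayed past the threshold in every alternative, and the Gbp11 difference of 1.29 CPM was 1.10 to 1.41 CPM with 1 library left out.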
